A study of Homo sapiens with 9 samples.

Results

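The regions described here are 420 places where chromatin of zfp281 was recovered and no peak of the related protein zfp148 was called in any list. They are peaks of the pooled bio-zfp281 list with a peak of each bio-zfp281 replicate on at least 1 of their bases. None of them overlapped a peak in any of the 3 bio-zfp148 lists or the 3 control lists. They make up 420 of the 68319 peaks of the pooled bio-zfp281 list. All cells were K562, a human erythroleukaemia line, and all stably expressed the bacterial biotin ligase BirA. One group carried no tagged protein (BirA), one carried zfp148 (ZNF148, also ZBP-89) and one carried zfp281 (ZNF281, also ZBP-99), each with a 23-residue biotin acceptor motif at its amino terminus. The tagged lines were clones picked because the added protein was made at about the level of the cell's own, untagged protein, which remained present. Every group was grown for 48 h with hemin (50 mM in the labels, a unit that is in doubt), and tagged protein was recovered on streptavidin after fixation. There were 2 ChIP libraries and 1 input library in each group, and nothing says that the 2 came from separate cultures.

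zfp148 and zfp281 are zinc finger proteins of the Krüppel type with closely related DNA-binding fingers, and both are known to bind G-rich and C-rich DNA. zfp148 is known as a partner of GATA1 at globin and other erythroid genes. zfp281 is better known from embryonic stem cells, where it acts with pluripotency factors and with repressor complexes. Hemin drives K562 cells toward haemoglobin production. The regions below are those where the lists separate the 2 proteins, in the direction of zfp281. Genes and sequences at the regions are not given, because no genome or annotation of the files' build (hg19) was used here.

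The libraries held few tags once duplicates were removed. The single bio-zfp281 libraries kept 1570283 and 906911 tags, which were 16.7% and 11.7% of 9392241 and 7781259. The single bio-zfp148 libraries kept 810565 and 1497503, or 14.2% and 15.7% of 5697215 and 9561556. The BirA libraries were unequal, at 15956688 and 1080363 tags (34.5% and 10.5% kept). The pooled lists rested on 4094023 bio-zfp281 and 3654924 bio-zfp148 tags. The authors called 68319 bio-zfp281 and 44202 bio-zfp148 peaks in the pooled lists, each with a median of 10 tags. The weakest peak of either pooled list held 7 tags. The intervals given below are exact (Clopper-Pearson) 95% binomial intervals and cover counting error only. Because the members were chosen by where peaks were and were not called, their values are described without a test.

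Most bio-zfp281 peaks with support in both replicates met a called zfp148 peak, by an amount that depended on the libraries used. Of the 68319 pooled bio-zfp281 peaks, 7066 (10.3%) were called again in each replicate, and 3462 of those (49.0%) met no BirA peak. These 3462 are called bio-zfp281 sites below. Of the sites, 420 (12.1%, interval 11.1 to 13.3%) had no bio-zfp148 peak in any list. Read against the list of 1 bio-zfp148 library alone, the share was 24.8% without replicate 1 and 34.2% without replicate 2. Read from 1 bio-zfp281 library's own list, it was 32.1% of 5762 sites without replicate 1 and 49.6% of 19144 without replicate 2. The lack of a called zfp148 peak was far more common among peaks with less support. It was found at 38056 of the 49527 peaks (76.8%) that also lay outside BirA peaks but lacked support in both replicates, and these 38056 had a median of 8 tags. Among peaks supported in both replicates that did meet a BirA peak, 296 of 3604 (8.21%) had no bio-zfp148 peak. Of the 3042 sites outside the set, 2038 met all 3 bio-zfp148 lists, 753 met 2 lists and 251 met 1 list. Asking for absence from the pooled bio-zfp148 list alone left 474 sites, and asking for absence from both single lists alone left 618.

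Sites without a zfp148 peak were mostly the sites with few tags. The 3462 sites were split into 5 bins of nearly equal size by their tags in the pooled bio-zfp281 list. In the bin with 7 to 24 tags, 211 of 766 sites (27.5%, 24.4 to 30.9%) had no zfp148 peak. The share was 15.1% at 25 to 31 tags, 11.01% at 32 to 41 tags and 4.63% at 42 to 57 tags. In the bin with 58 to 286 tags it was 3 of 690 (0.435%, 0.0898 to 1.27%). The share in the highest tag bin was 2.03% without bio-zfp148 replicate 1 and 9.86% without replicate 2. It was 4.37% when every overlap, also with bio-zfp281 replicates and BirA peaks, was judged by summits within 200 bp. That last setting gave 3554 sites and its own bins. In these settings the lowest bin stood at 48.7%, 54.2% and 29.7%, so the order of the outer bins was kept. Split by the authors' fold enrichment over local background, the shares fell less steeply. They went from 23.5% (20.4 to 26.8%) at a fold enrichment of 1.07 to 7.77 down to 5.34% (3.79 to 7.28%) at 30.4 to 417. The split by tags was chosen after the data were seen, and either split reads a list the rule used.

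**Figure D1:**
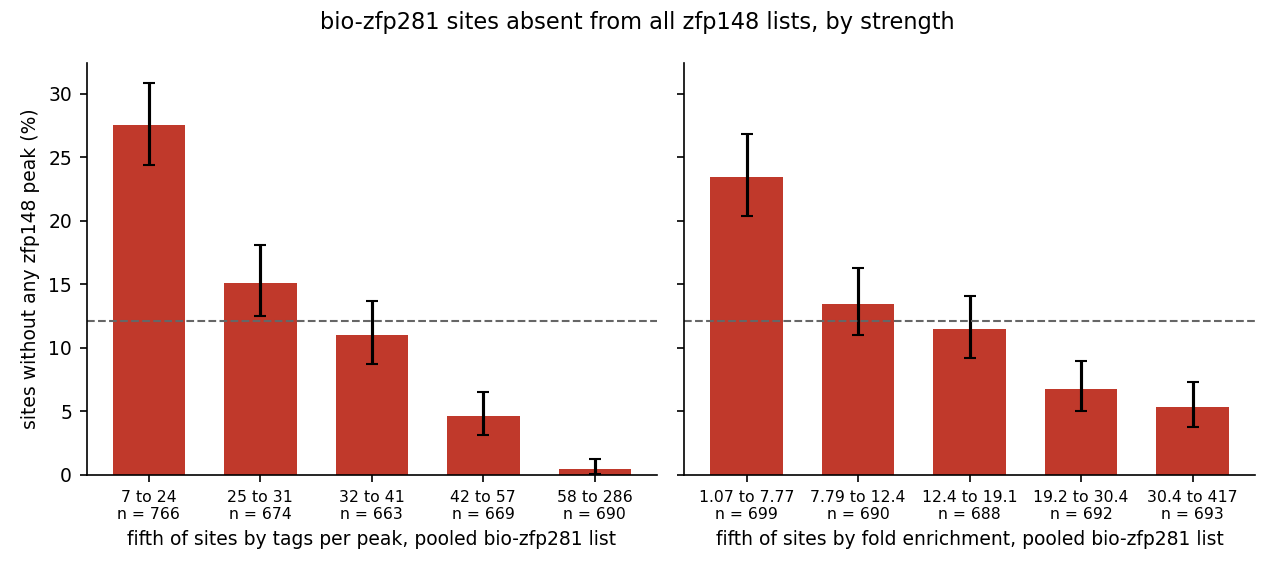
Share of the 3462 bio-zfp281 sites that had no zfp148 peak in any list (vertical axis, %), in 5 bins by tags per peak (left) and by fold enrichment (right) in the pooled bio-zfp281 list. Bars are shares, whiskers exact 95% intervals, and the dashed line is the share over all sites, 12.1%; the share falls from 27.5% to 0.435% by tags and from 23.5% to 5.34% by fold enrichment.

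Where a zfp148 peak was present, its own tag count was lower at the sites with few zfp281 tags than at those with many. In the bin with 7 to 24 zfp281 tags, 543 sites met a pooled bio-zfp148 peak, with a median of 18 zfp148 tags (quartiles 12 and 28). Of these peaks, 17.1% held 10 tags or fewer, the minimum of that list being 7. The median over all pooled bio-zfp148 peaks was 10 tags, so most peaks at these sites stood above it. In the bin with 58 or more zfp281 tags, 683 sites met a pooled bio-zfp148 peak with a median of 56 zfp148 tags (quartiles 36 and 83.5), and 1.32% held 10 or fewer. The peak lists hold no tag count where nothing was called. How many zfp148 tags lay at the 420 regions was therefore not measured. Low occupancy and a call missed for want of kept tags cannot be told apart.

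Fold enrichment and tags were both lower at the regions than at the other sites, but tracked each other only weakly. The pooled bio-zfp281 peaks at the 420 regions held a median of 24 tags (quartiles 21 and 32, range 9 to 81), against 38 (27 and 55) at the 3042 other sites. Their median fold enrichment was 10.3 (5.22 and 17.0, range 1.29 to 135), against 16.3 (9.56 and 28.1). Both medians were above those of the whole pooled bio-zfp281 list, 10 tags and a fold enrichment of 6.04. The median width of the regions was 727 bp, against 783 bp at the other sites. Across the 420 regions tags and fold enrichment had a Spearman rho of 0.141, against 0.454 across the other sites. Tags of the regions spanned a narrower range than the 7 to 286 of the other sites. These points share 1 pooled library, and the values are descriptions.

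**Figure D2:**
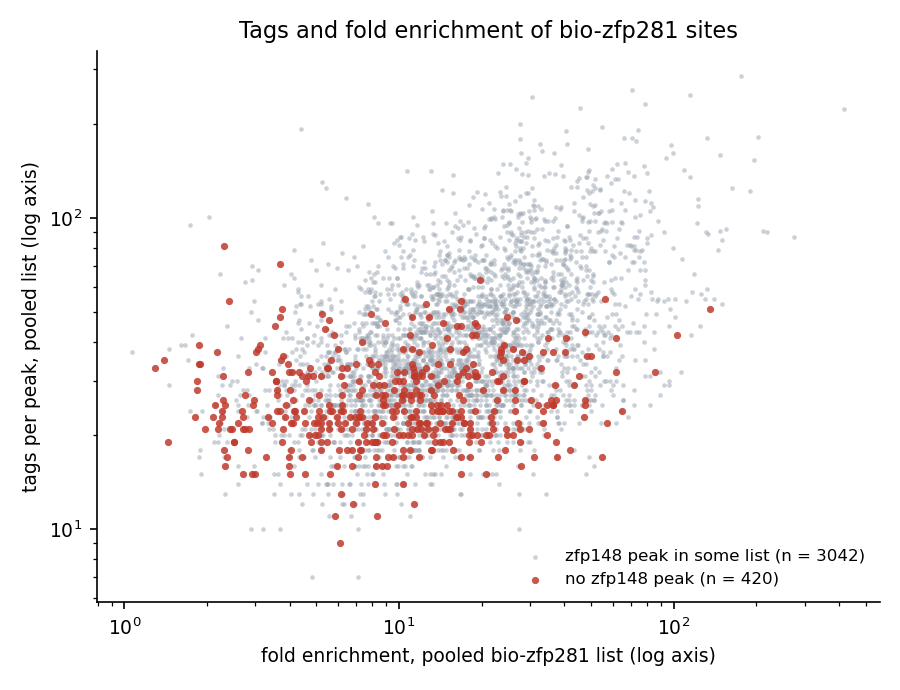
Tags per peak (vertical, log axis) against fold enrichment (horizontal, log axis) in the pooled bio-zfp281 list, 1 point per site; red, 420 sites without a zfp148 peak, grey, 3042 sites with one. The red points have quartiles of 21 and 32 tags and a range of 9 to 81, over fold enrichments of 1.29 to 135.

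Within the same tag range the regions still had lower fold enrichment than the other sites. Among sites with up to 31 tags, 313 had no zfp148 peak and 1127 had one. Their median fold enrichments were 9.50 (quartiles 5.18 and 15.6) and 11.4 (7.21 and 19.0). Their median tags were 23 (20 and 26) and 25 (21 and 28), so tags were capped but not matched. With up to 31 tags, 23.7% (21.1 to 26.5%) of sites at or below the median fold enrichment of all sites (15.2) lacked a zfp148 peak, and 17.5% (14.1 to 21.3%) of those above it did. With 32 tags or more the shares were 8.22% (6.36 to 10.4%) and 3.55% (2.60 to 4.72%). Tags thus separated the groups more than fold enrichment did. Widths were near each other at up to 31 tags, with medians of 681 and 659 bp.

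Both bio-zfp281 libraries called every region by definition, but on few tags. Replicate 1 held a median of 7 tags at the regions (quartiles 6 and 11) and replicate 2 a median of 6 (5 and 7). These counts are of the whole replicate peak, which at 3 regions held more tags than the pooled peak. At chr15:40380227-40380800 it held 79 in replicate 1, against 12 pooled. At the other sites the medians were 14 and 7. In replicate 2, 200 of the 420 regions (47.6%, 42.8 to 52.5%) stood at 5 tags, the lowest count that list holds, against 22.9% (21.4 to 24.4%) of the other sites. In replicate 1 the share at its minimum of 5 tags was 19.5% (15.8 to 23.6%), against 6.31% (5.47 to 7.24%). At 43 regions both replicates stood at the minimum. Replicate 2, the shallower library, thus supported many of the regions at the lowest count it lists.

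The replicates ranked the regions by fold enrichment in a similar order. Fold enrichment had a median of 3.52 (quartiles 1.88 and 5.77) in replicate 1 and 2.49 (1.44 and 4.33) in replicate 2. The Spearman rho between them was 0.817 across the 420 regions, and 0.730 across the other sites. Tag counts followed each other far less, with a rho of 0.197 against 0.492. Both ChIP libraries were set against the same input, so their fold enrichments share a denominator. A fold enrichment below 1 was listed at 30 regions in replicate 1 and at 60 in replicate 2 (14.3%, 11.1 to 18.0%), against 3.85% (3.19 to 4.59%) of other sites in replicate 2. At the strict end, 18 regions (4.29%, 2.56 to 6.69%) had a fold enrichment of 10 or more in the pooled list and in both replicates, against 7.79% (6.86 to 8.80%) of the other sites. The file headers do not say how a called peak can have a fold enrichment below 1, so the size of a single-library value over its background is uncertain.

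**Figure D3:**
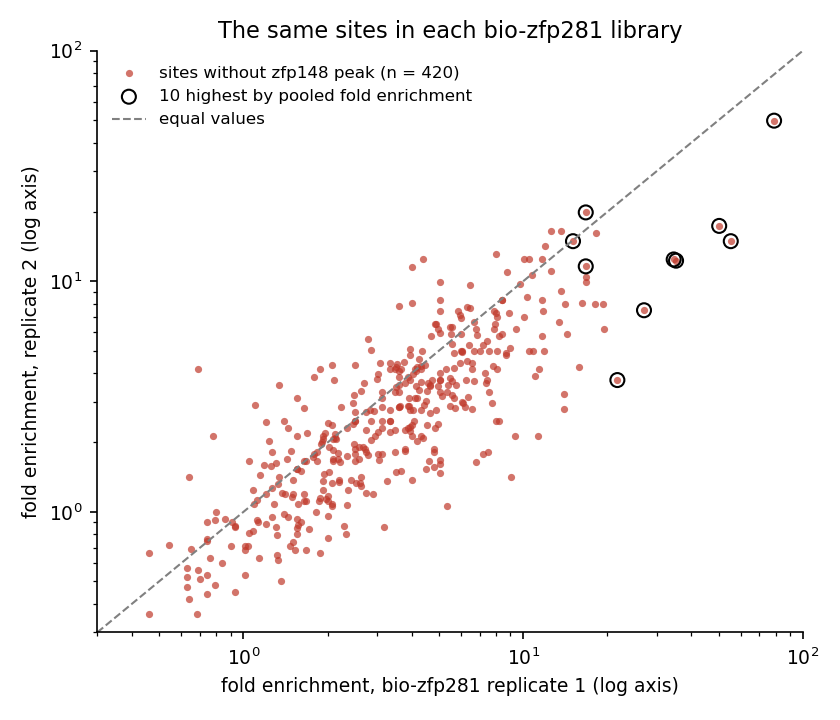
Fold enrichment of the 420 regions in bio-zfp281 replicate 1 (horizontal, log axis) and replicate 2 (vertical, log axis), 1 point per region, with the dashed line at equal values. Circles mark the 10 regions with the highest pooled fold enrichment; 314 of the 420 points lie below the line, with the higher value in replicate 1.

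The summits in the replicates lay close together at most regions. They were a median of 71 bp apart (quartiles 30 and 169), against 50 bp (20 and 111) at the other sites, and within 100 bp at 61.2% (56.3 to 65.9%) against 72.2% (70.5 to 73.7%). They were over 500 bp apart at 24 regions (5.71%, 3.70 to 8.38%), against 3.85% (3.19 to 4.59%) of the other sites. At sites with up to 31 tags the medians were 73 and 58 bp. The replicate peak that supported a region itself met a zfp148 peak at 4 regions and a BirA peak at 2.

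The strongest regions by fold enrichment lay on 8 chromosomes and rested on 17 to 55 pooled tags. The first was chr20:61317454-61318196, with 51 pooled tags, 20 in replicate 1 and 9 in replicate 2. Its fold enrichment was 135 in the pooled list, 50.2 in replicate 1 and 17.4 in replicate 2, and its rank by fold enrichment among the 3462 sites was 17. The replicate summits there were 12 bp apart and the nearest zfp148 peak of any list was 10009 bp away. It was thus well supported in both libraries, with the higher value in replicate 1.

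Chromosome 13 held the next pair, both near its distal end. The region chr13:114880557-114881179 had 42 pooled tags, 15 in replicate 1 and 11 in replicate 2. Its fold enrichment was 103 in the pooled list, 79.0 in replicate 1 and 49.7 in replicate 2, each replicate's highest value among the 420. Its neighbour chr13:113809105-113809674 had 32 pooled tags, 12 in replicate 1 and the minimum of 5 in replicate 2, with fold enrichments of 85.4, 55.3 and 14.9. The first of the pair was thus the higher in every list, and its replicate summits lay 2 bp apart.

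The other 7 of the 10 had pooled fold enrichments of 50.1 to 64.9. The region chr21:46909302-46910005 had fold enrichments of 64.9 pooled, 35.2 in replicate 1 and 12.3 in replicate 2, on 24, 14 and 7 tags. The region chr8:22636406-22636813 had 61.8, 27.1 and 7.49, on 32, 15 and 5 tags. The region chr3:129311314-129312362 had 61.5, 34.6 and 12.4, on 41, 18 and 8 tags. In all 3 the value in replicate 2 was the lower one, and at the chromosome 3 region the replicate summits were 380 bp apart.

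Among the last 4, a pair had close values in the replicates. The region chr12:133158784-133159131 had fold enrichments of 56.99 pooled, 15.1 in replicate 1 and 14.9 in replicate 2, on 22, 6 and 6 tags. The region chrX:63425505-63426020 had 54.7, 16.8 and 19.9, on 17, 6 and 6 tags, and its nearest zfp148 peak lay 450096 bp away, the farthest of all 420. These fold enrichments therefore rest on 6 tags in each library. The region chr11:57082941-57083697 differed most, with 56.2 pooled, 21.7 in replicate 1 and 3.73 in replicate 2, on 55, 24 and 6 tags. The region chr8:144300929-144301449 had 50.1, 16.8 and 11.6 on 36, 11 and 8 tags, and it lay next to a zfp148 peak (below).

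Many of these strong regions were near the high-coordinate end of their chromosome. Of the 10, 6 lay within 2 Mb of the last peak called on their chromosome in any list, which stands here for that end. The opposite end of each chromosome was not looked at, and regions near it count among the other 395 below. Of all 420 regions 25 did (5.95%, 3.89 to 8.66%), and of the other sites 4.11% (3.43 to 4.88%), so the intervals overlap. The 25 had a median fold enrichment of 18.9 (quartiles 11.3 and 37.2), against 9.62 (5.18 and 16.6) at the other 395 regions. Their tags divided by their fold enrichment, which restates how fold enrichment stood to tags, had a median of 1.06 against 2.64. Other sites in these end windows also stood higher, with a median fold enrichment of 22.1 against 16.1 elsewhere. The window was chosen after the values were seen.

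The regions with most tags were not those with the highest fold enrichment. All 3 with 58 tags or more are given here. The region chr22:22219965-22221552 held 81 pooled tags, 28 in replicate 1 and 8 in replicate 2, at fold enrichments of 2.30, 0.700 and 0.510. The region chr7:101372091-101373514 held 71, 26 and 7 tags, at 3.69, 1.20 and 0.890. The region chr1:202003204-202004330 held 63, 29 and 7 tags, at 19.7, 9.05 and 1.42. The first 2 thus had many tags at low fold enrichments in every list, and zfp148 peaks lay 212 and 773 bp from them. The lowest fold enrichment of the set was 1.29, at chr1:22352702-22353771, on 33 pooled tags, with 0.630 in replicate 1 and 0.520 in replicate 2.

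At the edge of the rule the distinction came down to single bases. Just inside, the region chr8:144300929-144301449 was separated by 1 bp from a pooled zfp148 peak with 8 tags and a fold enrichment of 7.09, whose summit was 597 bp from its own. The region chr2:219523377-219524111 lay 9 bp from a peak of bio-zfp148 replicate 1 with 5 tags and a fold enrichment of 6.31. The region chr5:10627696-10628609 lay 20 bp from a pooled zfp148 peak with 8 tags and a fold enrichment of 5.32. The neighbours of the chromosome 8 and chromosome 5 regions lay below their list's medians of 10 tags and a fold enrichment of 11.2. The neighbour of the chromosome 2 region stood at its list's median of 5 tags and above its median fold enrichment of 5.05. The summits of the 3 neighbours were 597 to 664 bp away.

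Just outside the rule stood sites whose overlap with a zfp148 peak was as small. The site chr19:47616335-47617392 shared 1 bp with a pooled zfp148 peak of 73 tags and a fold enrichment of 26.1, and its own fold enrichment was 3.67 on 29 tags. The site chr5:142783794-142784810 shared 1 bp with a peak of 12 tags and a fold enrichment of 22.8, its own being 21.4 on 27 tags. The site chr5:1003735-1004892 shared 37 bp with a peak of 8 tags and a fold enrichment of 16.8, its own being 18.1 on 25 tags. These 3 were the only sites of the 3042 with an overlap under 50 bp. The number of regions was 449 when every overlap in the rule had to cover 50% of the shorter peak. It was 532 when summits had to lie within 200 bp instead. Both settings also changed the replicate support and the BirA removal, giving 3586 and 3554 sites.

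Most of the 420 regions had zfp148 peaks in their neighbourhood. The nearest one was a median of 4185 bp away (quartiles 1182 and 13777). It was within 1000 bp at 89 regions (21.2%, 17.4 to 25.4%) and within 5000 bp at 225 (53.6%, 48.7 to 58.4%). Peaks of the pooled bio-zfp281 list that also met no zfp148 and no BirA peak, but lacked support in both replicates, had one within 1000 bp in 12.4% (12.04 to 12.7%) of 38056 cases and within 5000 bp in 36.7% (36.2 to 37.2%). The regions thus lay closer to zfp148 peaks than weaker zfp281 peaks did. They also lay closer to BirA peaks, with 19.5% (15.8 to 23.6%) within 1000 bp against 12.01% (11.7 to 12.3%). The regions and the weaker peaks differ in strength and in place, and neither set was tested against the other. Against the 3042 other sites the regions hardly differed in distance to BirA peaks. The nearest BirA peak lay a median of 5442.5 bp (quartiles 1711 and 14067) from the regions and 5650.5 bp (1720 and 14765) from the other sites. Of 82 regions with a pooled zfp148 peak within 1000 bp, that peak met the zfp148 site rule (both replicates, no BirA peak) in 12 (14.6%), against 11.1% of all pooled zfp148 peaks. It met a BirA peak in 29 (35.4%), against 23.0% of all pooled zfp148 peaks, and its median was 12 tags, against 10.

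**Figure D4:**
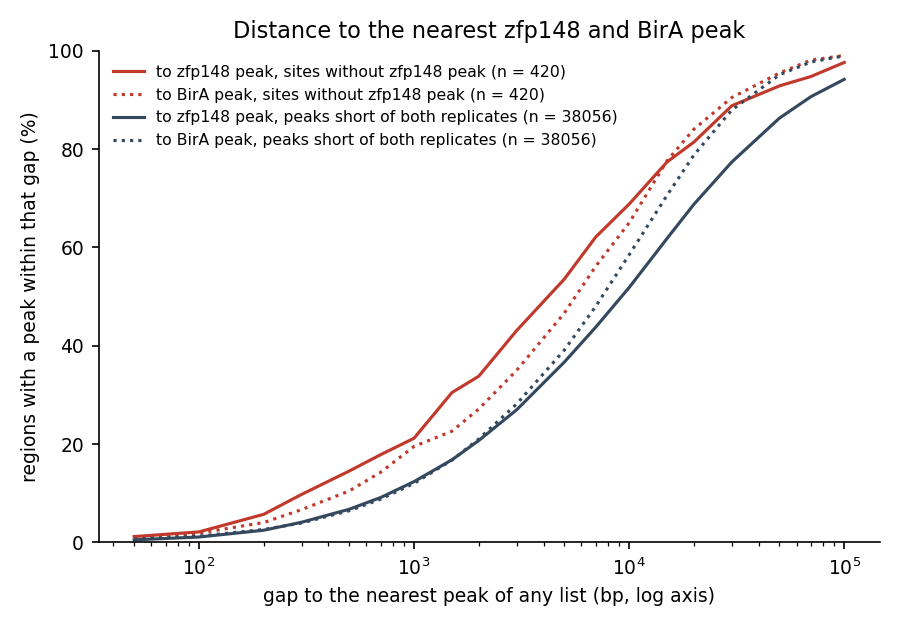
Share of regions (vertical, %) that had a peak of any zfp148 list (solid) or BirA list (dotted) within a given gap (horizontal, bp, log axis). Red, the 420 regions; dark blue, 38056 pooled bio-zfp281 peaks outside zfp148 and BirA peaks that lacked support in both replicates; within 1000 bp of a zfp148 peak lay 21.2% of the regions and 12.4% of the weaker peaks.

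The regions themselves were scattered. They occupied 326 windows of 1 Mb, of which 256 held 1 region and 15 held 3 or more. Only 2 regions lay within 1000 bp of another region of the set, and 46 within 50000 bp. Another bio-zfp281 peak of the pooled list, of any strength, lay within 1000 bp of 30.5% (26.1 to 35.1%), against 38.2% (36.5 to 40.0%) of the other sites.

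On most chromosomes the interval of the share of sites without a zfp148 peak took in the share over all sites. Chromosome 1 held the most regions, 54 of its 457 sites (11.8%, 9.003 to 15.1%). Chromosome 19 was the densest, with 0.508 regions per Mb (exact Poisson interval 0.342 to 0.725), but they were 10.1% (6.94 to 14.2%) of its 296 sites, near the share over all chromosomes. Of the 23 chromosomes with sites, the interval lay above the overall 12.1% in 2 and below it in 0. These were chromosome 22, with 23 of 113 sites (20.4%, 13.4 to 29.0%), and chromosome 7, with 37 of 211 (17.5%, 12.7 to 23.4%). The intervals are not adjusted for the 23 looks.

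**Figure D5:**
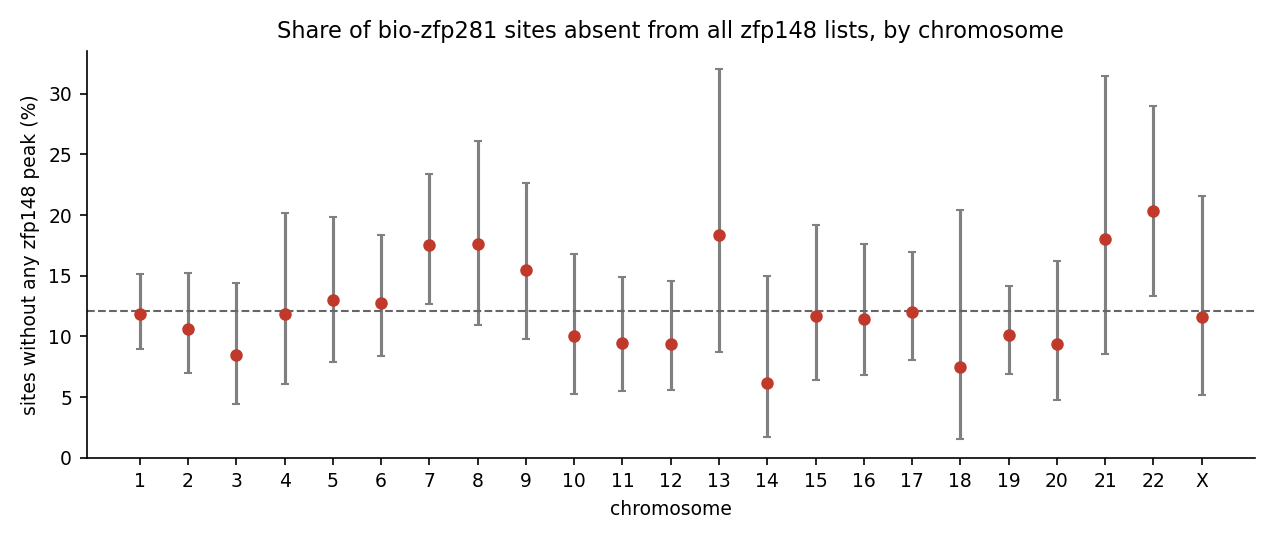
Share of bio-zfp281 sites without a zfp148 peak (vertical, %) on each of 23 chromosomes (horizontal), with exact 95% binomial intervals; the dashed line is the share over all sites, 12.1%. Chromosome 22 (20.4%) and chromosome 7 (17.5%) have intervals above the line.

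On chromosome 22 the regions clustered in 1 stretch with low fold enrichment. In 4 neighbouring windows, from 19 to 23 Mb, 17 of 54 sites (31.5%, 19.5 to 45.6%) had no zfp148 peak. These 17 held a median of 31 tags (16 to 81) at a median fold enrichment of 2.33 (1.39 to 11.2). The other 37 sites of the stretch were alike in this, with a median of 42 tags and a median fold enrichment of 4.22. The stretch also held regions with a pooled FDR over 5%, at 6.44, 6.69, 7.94, 9.59 and 18.4%. Of all 420 regions only 7 (1.67%, 0.673 to 3.40%) exceeded 5%, against 0.427% (0.228 to 0.730%) of the other sites. Tags divided by fold enrichment had a median of 10.7 at the 17 regions and 12.05 at the other 37 sites, against 2.55 over all 420 regions. That quotient restates the low fold enrichment at ordinary tag counts, and the peak lists give no input level at a peak. K562 cells are known to carry extra copies of BCR and ABL1 sequence from chromosomes 22 and 9. Copy number was not measured here, and its part was not tested. On chromosome 9 the 21 regions had a median fold enrichment of 7.17 and a median of 2.37 tags per unit of it, against 10.4 and 2.46 on the chromosomes other than 9 and 22.

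Chromosome 7 held the only other run of neighbouring windows with 3 or more regions each. From 100 to 102 Mb, 7 of 23 sites (30.4%, 13.2 to 52.9%) had no zfp148 peak, on a median of 38 tags and a fold enrichment of 8.48. The stretch includes the 71-tag region given above. The other 16 sites there had a median of 37.5 tags and a fold enrichment of 12.8. In contrast to the chromosome 22 stretch, tags divided by fold enrichment were 3.66 and 3.67, nearer to the median of the whole set. Both stretches were singled out after their counts were seen.

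The reverse set was of a similar size. Of 4885 bio-zfp148 sites, 502 (10.3%, 9.44 to 11.2%) had no peak in any bio-zfp281 list. They too held fewer tags than the other zfp148 sites, with medians of 19 and 30, and had a lower median fold enrichment, 18.6 against 24.3. Few tags thus went with the lack of the other protein's peak on either side. Fold enrichments are not compared between the lists, which were scaled separately.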

How the data were processed

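The submitters' processing notes name Bowtie 1.0.0, MACS 1.4 and the build hg19. Per the file headers this was MACS 1.4.0rc2 with a p cutoff of 1e-05, the smaller data set being scaled up to the larger, with 1 list for each of the 6 ChIP libraries and 1 for each group's pooled replicates. Duplicate tags were limited to 1 at a position in the single libraries of bio-zfp148 or bio-zfp281, and to 2 in their pooled lists. A pooled peak can therefore hold more tags than its replicates added together, and most did. The pooled count divided by the summed replicate counts had a median of 1.83 (quartiles 1.69 and 2.00) at the regions. At the other sites it was 1.76 (1.60 and 1.89). The tag count per peak was deposited by the authors without normalisation. Fold enrichment is the authors' ratio over a local background, the FDR is the authors' percent, and the p scale is the authors' score of 10 times −log10 p. Each describes peaks within 1 list.

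From these, overlaps were counted with Python 3.11.15, numpy 2.4.6, pandas 2.3.3 and scipy 1.17.1, and figures drawn with matplotlib 3.10.9. Overlap queries were tested on simulated data against a direct count. A region's value in a replicate is that of the replicate peak with the largest overlap. Named are the 10 regions highest by pooled fold enrichment, the 3 nearest a zfp148 peak and the 3 sites with the smallest overlap; other named regions were chosen after their values were seen. The members and these rules were set with earlier results of these data known. Planned gene, sequence and motif shares were not computed, since only GRCh38 tables were at hand. Alternatives were stricter thresholds, other overlaps, other uses of the lists and each replicate left out.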

Additional observations from a re-analysis of the deposited data

How the results depend on the processing

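The number of regions without a zfp148 peak was within 1.5 times 420 in 9 of 19 alternatives. The number of sites changed with the setting too, and the share in the main count was 12.1% of 3462. At a fold enrichment of at least 10 in every list it was 27 of 480 sites (5.6%). It was 674 of 4285 (15.7%) at a p scale of at least 100 in every list and 675 of 4783 (14.1%) at an FDR of at most 5%. These settings remove zfp148 and BirA peaks too. With no BirA removal the number rose to 716, but of 7066 sites (10.1%). With only places in both BirA replicates removed it was 671 of 6375 (10.5%). With 1 library left out, its group was read from the remaining library's own list. The number then ranged from 528 of 5272 sites (10.0%, without BirA replicate 2) to 9488 of 19144 (49.6%, without bio-zfp281 replicate 2). It was 1849 of 5762 (32.1%) without bio-zfp281 replicate 1. Of 3462 sites it was 858 (24.8%) and 1183 (34.2%) without bio-zfp148 replicate 1 and 2.

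The fall in share from the weakest to the strongest bin was 18.1 percentage points by fold enrichment and 27.1 by tags, and it kept its direction in all 19 alternatives for both. By fold enrichment it was 13.0 with no zfp148 or BirA peak allowed within 1000 bp, 26.7 at the stricter p scale, 8.33 at the stricter fold enrichment, 23.0 at the stricter FDR, and 23.1 and 23.5 with absence asked in the pooled or in the single zfp148 lists. By tags it was 22.3 with the 1000 bp margin, 31.2 at the stricter p scale, 14.7 at the stricter fold enrichment and 36.6 with the single zfp148 lists. With 1 library left out the ranges were 18.8 to 37.4 and 24.7 to 58.0. The cause of these shifts was not tested.

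Replicate numbers are shared between groups, but nothing says that they pair libraries. A replicate block set each bio-zfp281 replicate against the same-numbered bio-zfp148 and BirA libraries. It gave 711 regions among 3828 sites (18.6%), and falls of 24.9 and 34.5 points. Gene start and motif windows were not run.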
